A study of Homo sapiens with 2 samples.

Results

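Cancer-testis antigens are proteins whose genes are used in germ cells of the testis, are silent in most other adult tissues and come on again in a share of tumours. The families described here are MAGEA, MAGEB, MAGEC, GAGE, XAGE, PAGE, SSX and CTAG. Their members were taken by name: every non-control probe whose gene name on the array starts with one of these family names (for SSX, with a digit after it) was included, whatever its level. This gave 58 probes for 50 gene names, of 41000 probes and 30238 gene names on the array. Chromosome X carries 42 of these genes with 45 probes. The other 8 genes, with 13 probes, lie on autosomes and are the CTAGE genes and SSX2IP, which the shared beginning of the name brought in.

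The cells were derived from A2780, a human ovarian carcinoma line. A2780CBN was selected in rising doses up to 22.2 µM carboplatin, a platinum drug that damages DNA. A2780CBNDXL was selected in carboplatin together with docetaxel, a taxane that stabilizes microtubules, and the labels give 8.02 µM for the combination. The methods name a different dose for keeping this line in culture. In the paper, the figure on the labels is this line's inhibitory concentration of carboplatin in the combination, not a selection dose. Docetaxel was present there at a much lower concentration. Each resistant line was hybridized on 2-colour Agilent arrays against co-cultured parental A2780 cells (A2780CC). According to the methods, every resistant line had a co-cultured control of its own. Pooled RNA of each line was 1 sample, put on 4 arrays: each of 2 slides carried 1 array in either dye orientation, so the SD given below covers labelling and hybridization only and no test across cultures was possible. In such bulk RNA, fewer cells that use a gene and less of its RNA per cell cannot be told apart.

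Most of these families sit in clusters of near-identical copies on chromosome X. In normal adult cells their promoters are kept methylated, and loss of DNA methylation is a known way in which they come on in tumours. MAGE proteins share a domain that binds E3 ubiquitin ligases, GAGE, XAGE and PAGE are small acidic proteins, SSX proteins are transcriptional repressors that join Polycomb complexes, and CTAG1A and CTAG2 encode the tumour antigens NY-ESO-1 and LAGE-1. The CTAGE genes and SSX2IP differ from these: CTAGE5 (now named MIA2) helps export large cargo from the endoplasmic reticulum, and SSX2IP is a centrosome protein found through its binding to SSX2.

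A probe counted as detected in a channel when the software marked it well above background there on all 4 arrays of a line. It was called higher or lower when its mean log2 ratio, resistant line over control, reached 1 in size (2-fold), had the same sign on all 4 arrays, and came with detection in 1 of the channels. Each array had between 59.8% and 67.5% of its spots well above background. Signals are processed intensities in arbitrary units, and the brightness of different probes cannot be compared.

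Most X-linked members were not detected in these cells, in the resistant lines or in the controls. In A2780CBN, 4.44% of the 45 X-linked probes were detected in the resistant channel and 4.44% in the control channel. In A2780CBNDXL these shares were 8.89% and 4.44%. Among the 1410 other probes on chromosome X, A2780CBN and its control had 59.9% and 60.1% detected, and A2780CBNDXL and its control 55.7% and 58.2%. Of the 45 X-linked member probes, 31 (68.9%) were well above background in neither channel of any of the 8 arrays. This held for 26.1% of other X probes and 25.5% of all probes. The 13 autosomal probes behaved differently: 76.9% were detected in each channel of A2780CBN and 69.2% in each channel of A2780CBNDXL. Over all 58 probes the share detected was 20.7% in both channels of A2780CBN, and 22.4% in the resistant and 19.0% in the control channel of A2780CBNDXL.

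**Figure D1:**
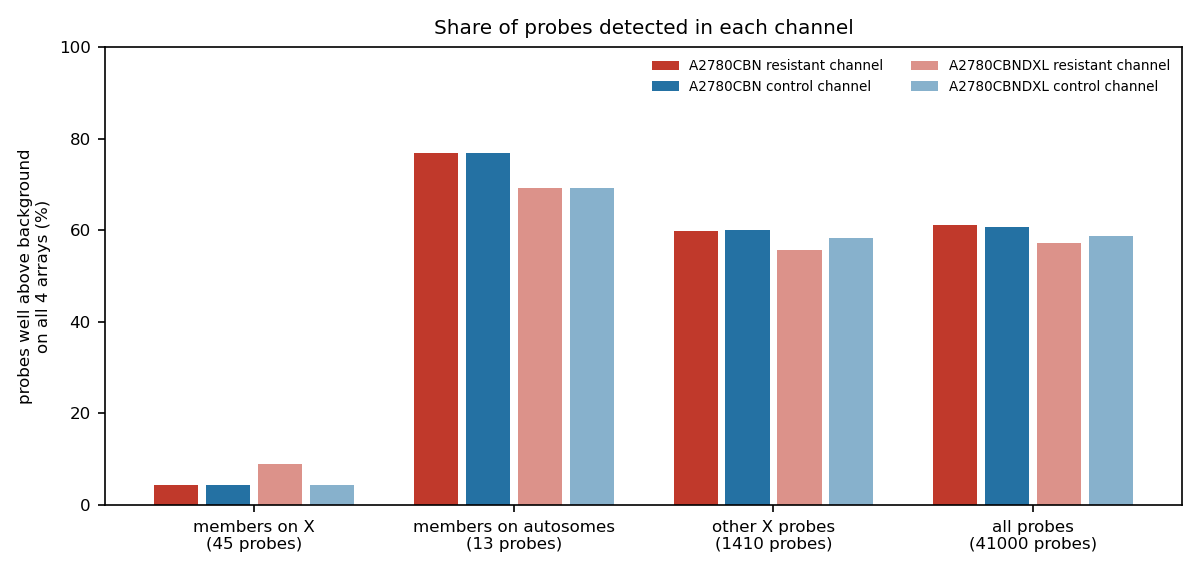
Share of probes well above background on all 4 arrays (y axis, %), for X-linked members, autosomal members, other X probes and all probes (x axis), in the resistant and control channels of both lines. X-linked members stay at 4.44% to 8.89%, and the other groups lie between 55.7% and 76.9%.

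The detected X-linked probes were 4 in number: MAGEB2 and 1 of the SSX2 probes in every channel of both lines, and MAGEC2 and MAGEA8 in the A2780CBNDXL channel only. In A2780CBN, 0 of the 58 probes were called higher, where 4.62% of all probes were, and 0 were called lower, where 2.84% of all probes were. In A2780CBNDXL, 2 probes were called higher, MAGEC2 and MAGEA8, where 4.50% of all probes were, and 0 were called lower, where 5.16% of all probes were. The 2 probes are 3.45% of the 58, a share below that of the whole array. Few members could be called at all, however, since a call needed detection in 1 of the channels. In A2780CBNDXL 13 of the 58 members and 24869 of all 41000 probes had it, and 2 and 1843 of these were called higher. In A2780CBN 12 members and 25906 of all probes had it. The shares over all probes are therefore not like for like. The median log2 ratio of the 58 probes was 0.03 in A2780CBN and 0.08 in A2780CBNDXL, beside 0.00 and 0.07 over all probes.

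**Figure D2:**
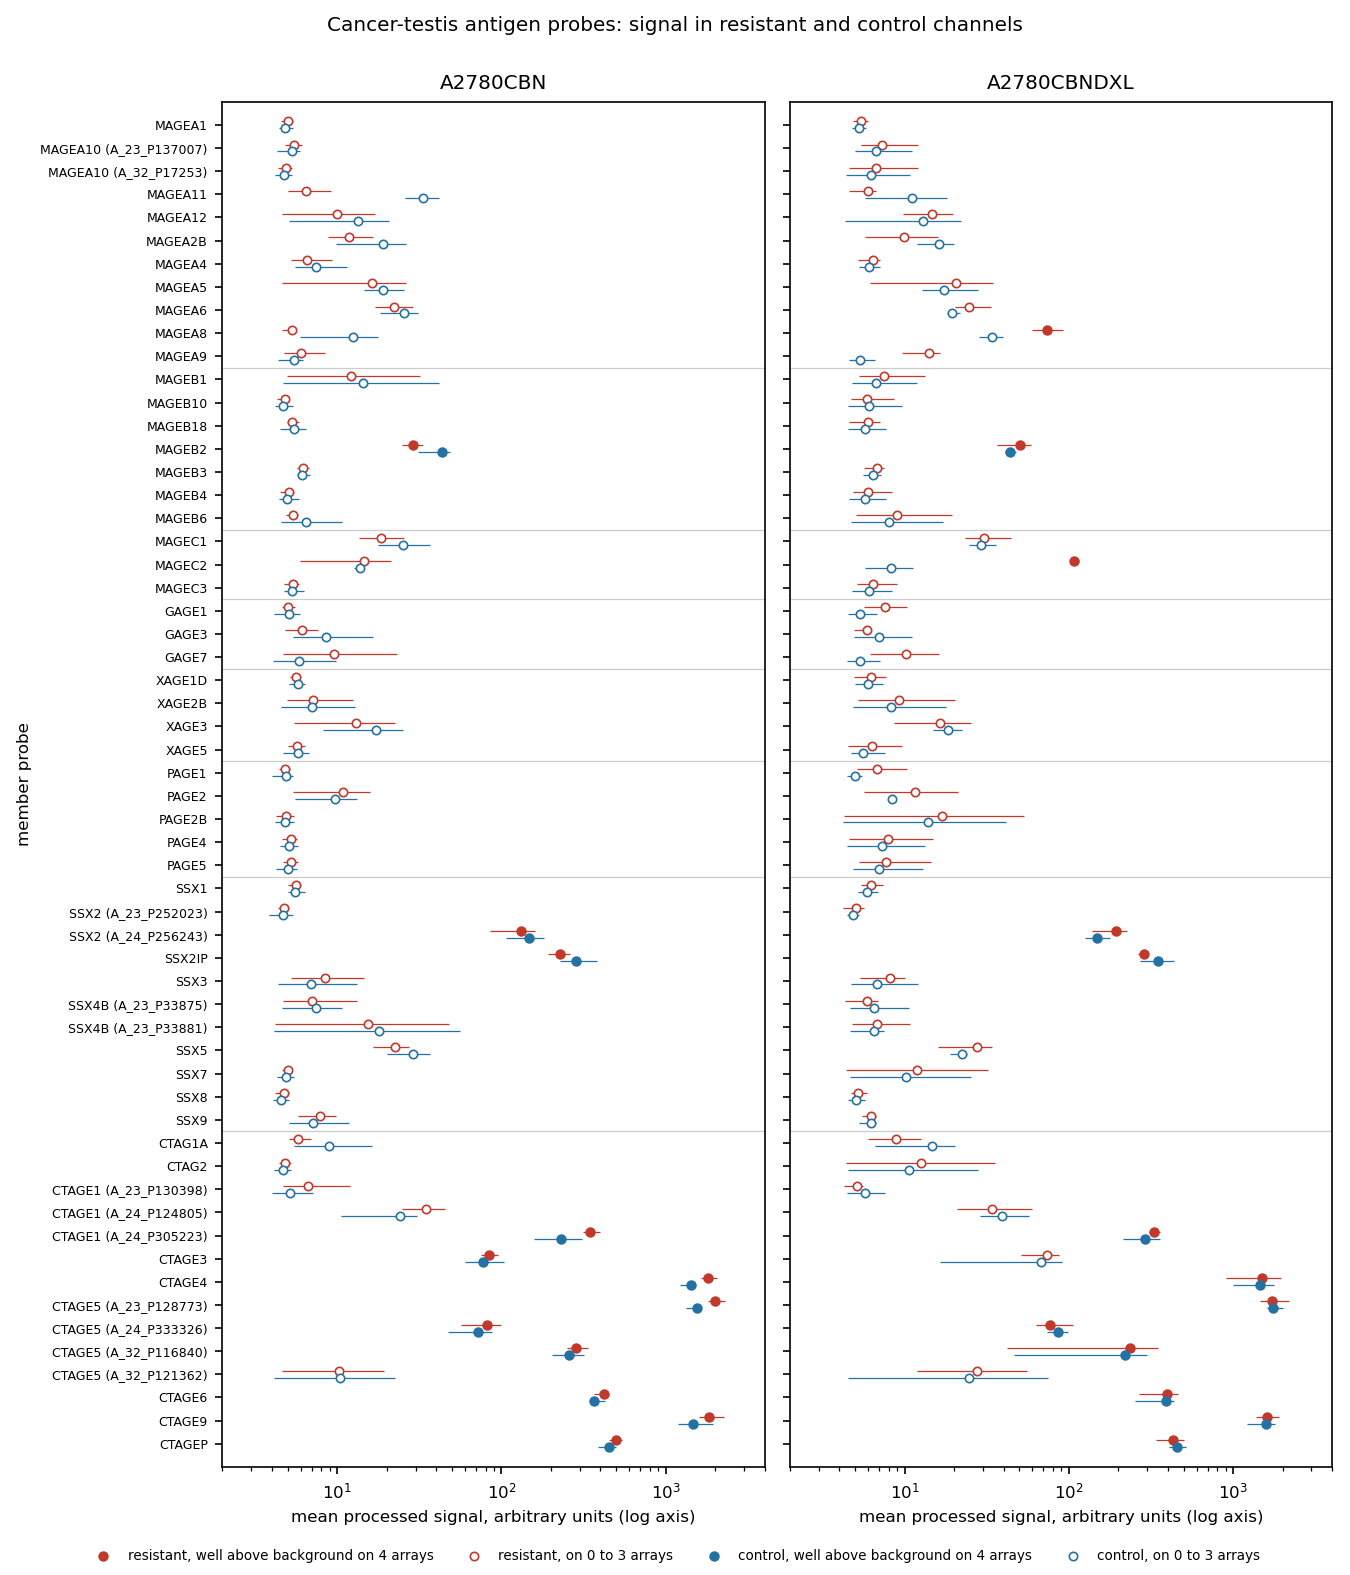
Mean processed signal of each member probe (x axis, log scale, arbitrary units) by family (y axis) in the resistant (red) and control (blue) channels of both lines, with bars from the lowest to the highest of 4 arrays. Filled points were well above background on all 4 arrays. Filled points among X-linked members are limited to MAGEB2, 1 SSX2 probe and, in the A2780CBNDXL channel, MAGEC2 and MAGEA8.

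MAGEC2 had the largest ratio of the 58 probes. It encodes a tumour antigen that binds the ubiquitin ligase TRIM28. Its probe lies at chrX:141117989-141118048 on NCBI36. In A2780CBNDXL its signal was 101 and 111 on the forward and reverse arrays of slide 1 and 115 and 103 on those of slide 2. In the control channel of the same arrays it was 6.19, 9.75, 5.74 and 11.3. The channels did not overlap: the resistant line was well above background on 4 of 4 arrays and the control on 0 of 4. The mean log2 ratio was 3.76 ± 0.51 (SD, 4 arrays). Since the control was not well above background, the difference is a bound, at least 5.39-fold higher. The bound was set per array at the dimmest signal that still stood well above background (15.1 to 25.9 over all channels after scaling between arrays). In A2780CBN the signal was 5.96 to 21.3 in the resistant channel and 12.6 to 14.4 in the control channel, well above background on no array, with a log2 ratio of −0.06 ± 0.87. After scaling between arrays, the A2780CBNDXL channel was also higher than the control channel of the A2780CBN arrays, which was well above background on 0 of 4 arrays, by at least 4.57-fold. Normexp background correction with an offset of 50, which pulls dim signals together, gave 0.48 and no call.

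MAGEA8 was higher in A2780CBNDXL by a smaller amount. This member of the MAGEA family lies in the distal cluster on the long arm, and its probe is at chrX:148774856-148774915. Its signal in A2780CBNDXL was 92.0 and 79.2 on slide 1 and 64.3 and 59.8 on slide 2. In the control channel it was 36.0, 39.5, 33.0 and 28.5, well above background on 3 of 4 arrays. Every resistant signal was above every control signal. The mean log2 ratio was 1.10 ± 0.18 (SD, 4 arrays), with array values of 1.35, 1.00, 0.96 and 1.07, so the call sits near the 2-fold limit. Without the first array the mean was 0.9986 and the call was lost. In A2780CBN the resistant channel gave 4.64 to 5.65 and the control channel 5.94 to 17.7, with no array well above background in either channel. The ratio there was −1.13 ± 0.59, lower on 4 of 4 arrays. The control channels of the lines differed for this gene: their scaled log2 signals were 3.68 ± 0.68 on the A2780CBN arrays and 5.07 ± 0.26 on the A2780CBNDXL arrays. Set against the control of the A2780CBN arrays, which was not well above background, A2780CBNDXL was at least 3.14-fold higher. Normexp correction gave 0.15 and no call.

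**Figure D3:**
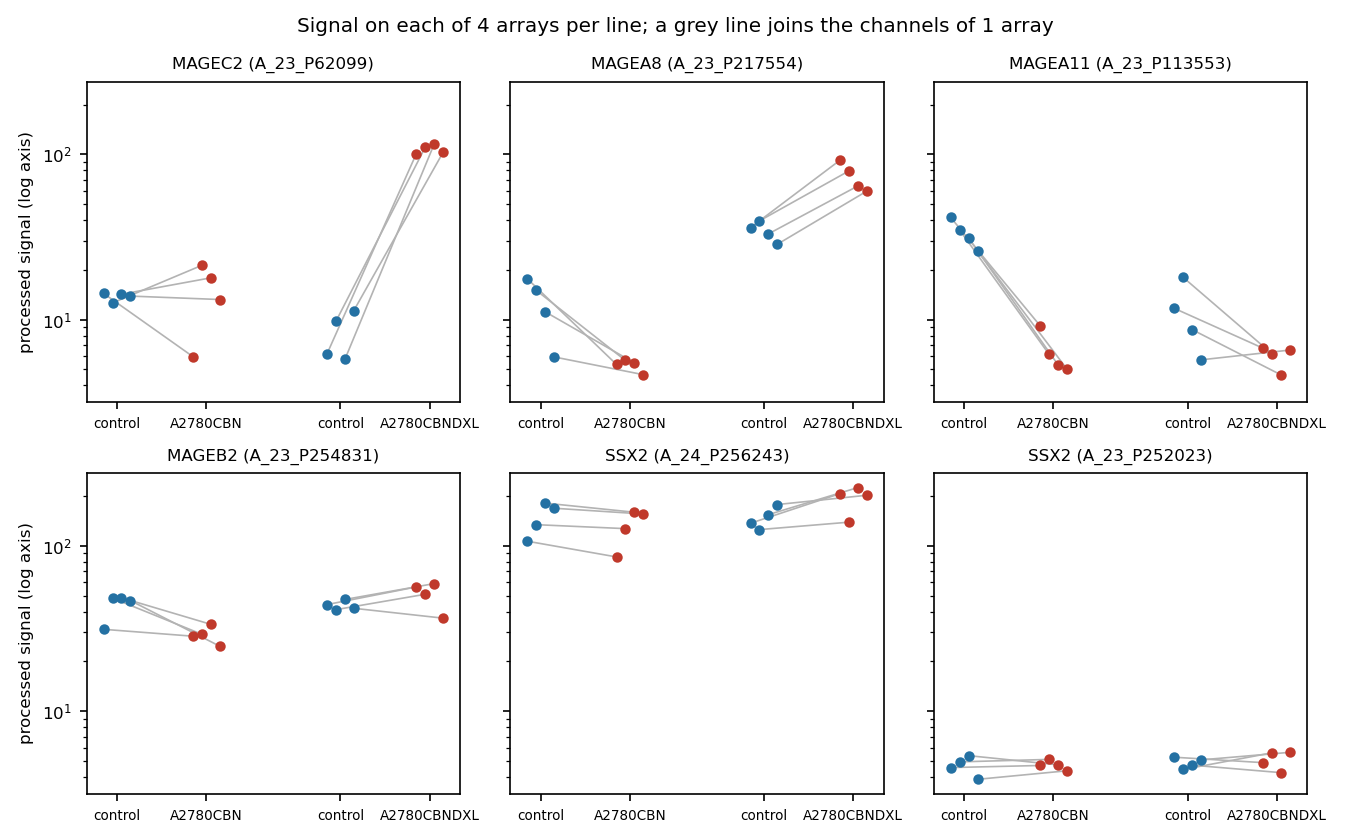
Processed signal (y axis, log scale) of 6 probes in the control and resistant channels on each of 4 arrays per line (x axis); grey lines join the channels of 1 array. MAGEC2 and MAGEA8 rise on every A2780CBNDXL array, and MAGEA11 falls on every A2780CBN array.

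MAGEA11, a coactivator of the androgen receptor, went the other way in A2780CBN but did not pass the rule. It is named here because of its values. The control channel gave 41.4, 34.8, 31.2 and 26.0 and the resistant channel 9.18, 6.16, 5.33 and 5.02. The measured ratio was −2.40 ± 0.17 and the channels did not overlap, yet the control was well above background on only 3 of 4 arrays, and the resistant line on 0 of 4. As a bound, the resistant line was at least 1.49-fold lower. Without the forward array of slide 2, the probe was called lower. In A2780CBNDXL the ratio was −0.77 ± 0.72 with no array well above background. Here too the controls differed, with scaled log2 signals of 5.13 ± 0.30 on the A2780CBN arrays and 3.22 ± 0.71 on the A2780CBNDXL arrays, the latter well above background on 0 of 4 arrays. With the controls exchanged, the measured ratio was −0.49 ± 0.75 for A2780CBN and −2.68 ± 0.45 for A2780CBNDXL. Both of these resistant channels were well above background on no array.

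MAGEA9, chosen for the same reason, had a ratio of 1.39 ± 0.58 in A2780CBNDXL and was higher on 4 of 4 arrays, at signals of 9.57 to 16.4 against 4.57 to 6.56, none of them well above background. In A2780CBN its ratio was 0.12 ± 0.29. The MAGEA9 probe lies 97.9 kb and the MAGEA11 probe 198.6 kb from the MAGEA8 probe. Of the other MAGEA genes (MAGEA1, MAGEA2B, MAGEA4, MAGEA5, MAGEA6, MAGEA10 and MAGEA12), none was well above background on all arrays of a line. Across the family, 9 of 11 probes were well above background in no channel of any array of A2780CBN, and 9 of 11 in A2780CBNDXL.

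**Figure D4:**
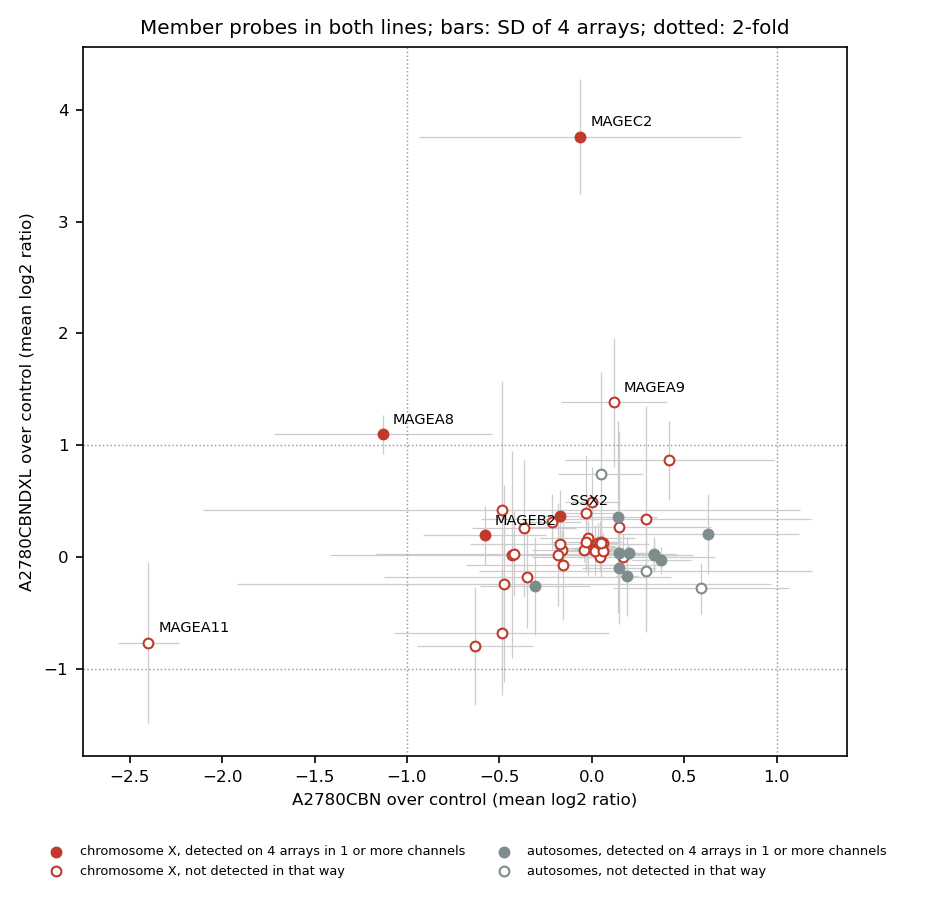
Mean log2 ratio of each member probe in A2780CBN (x axis) and A2780CBNDXL (y axis), with the SD of 4 arrays as bars and dotted lines at 2-fold. MAGEC2 (3.76) and MAGEA8 (1.10) are the filled X-linked points above the upper 2-fold line, and MAGEA11 (−2.40) lies far to the left as an open point.

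To show what these genes have at their starts, the RefSeq promoter sequences of MAGEC2, MAGEA8 and MAGEC1 are printed 5′ to 3′ on the strand of the gene, from 250 bases before the start site to 10 after it. MAGEC1 is the closest relative of MAGEC2 in the set, its probe lying 293.4 kb away, and it was not detected on all arrays. Capitals mark GGATGTG or its reverse complement CACATCC, a word chosen after reading these promoters.
MAGEC2 (GRCh38.p14, chrX:142205281-142205540, minus strand): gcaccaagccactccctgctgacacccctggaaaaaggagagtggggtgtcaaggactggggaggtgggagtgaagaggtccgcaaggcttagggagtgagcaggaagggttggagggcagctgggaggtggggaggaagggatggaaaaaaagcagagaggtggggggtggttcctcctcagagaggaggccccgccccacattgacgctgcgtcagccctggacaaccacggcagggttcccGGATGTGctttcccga
MAGEA8 (GRCh38.p14, chrX:149880933-149881192, plus strand): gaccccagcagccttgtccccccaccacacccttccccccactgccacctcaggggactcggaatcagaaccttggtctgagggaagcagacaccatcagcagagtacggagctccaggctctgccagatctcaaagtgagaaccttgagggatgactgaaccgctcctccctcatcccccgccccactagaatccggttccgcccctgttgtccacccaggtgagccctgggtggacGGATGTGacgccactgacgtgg
MAGEC1 (GRCh38.p14, chrX:141903644-141903903, plus strand): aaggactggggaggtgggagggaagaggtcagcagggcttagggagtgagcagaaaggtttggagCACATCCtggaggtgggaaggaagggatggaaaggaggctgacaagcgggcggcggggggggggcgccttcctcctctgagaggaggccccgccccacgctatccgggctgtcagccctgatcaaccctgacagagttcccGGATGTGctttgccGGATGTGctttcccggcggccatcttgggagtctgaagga

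The word GGATGTG, on either strand of the 300-base window that runs to 50 bases past the start site, occurred in 43.9% of the 41 promoters of X-linked members and in 4.29% of all 35116 promoters of the table. Promoters were found for 35 of the 50 member genes. Of the 17 X-linked MAGE genes among them, 11 held the word, MAGEC1, which was not called, among them. MAGEA4 alone gave 5 of the 18 promoters with a match. The share was 40.0% among the 5 promoters of autosomal members and 5.44% among other X promoters. Since the word was picked from promoters that are counted here, these shares describe letters only and support no site. Copies within a family share descent and are not independent. The median number of CG dinucleotides was 10 in promoters of X-linked members and 14 in all promoters.

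MAGEC1 itself, named for comparison, gave 13.6 to 25.4 in A2780CBN against 17.7 to 36.5 in its control, and 23.2 to 44.5 in A2780CBNDXL against 24.7 to 36.1. Its ratios were −0.42 ± 0.74 and 0.03 ± 0.38, smaller than or near the spread between arrays. MAGEC3 had mean signals of 5.33 to 6.44 in all channels.

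In the MAGEB family, MAGEB2 was the only gene detected, and it was detected everywhere. The 4 arrays gave 28.4, 29.1, 33.5 and 24.7 for A2780CBN and 31.2, 48.2, 48.5 and 46.6 for its control. For A2780CBNDXL they gave 56.4, 50.9, 59.0 and 36.5, with 44.1, 41.1, 47.3 and 41.8 for the control. The ratios were −0.58 ± 0.33 and 0.20 ± 0.26, both under 2-fold. Within arrays, A2780CBN was lower on 4 of 4, and across arrays the channels overlapped in both lines. The other 6 MAGEB probes had ratios between −0.17 and 0.17 in both lines.

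No GAGE, XAGE or PAGE probe was detected on all arrays of a channel. Of 3 GAGE, 4 XAGE and 5 PAGE probes, 0 were well above background on any A2780CBN array, and in A2780CBNDXL 1 XAGE and 1 PAGE probe reached it on a single array. The members named for the highest mean signal of their family were GAGE7 (mean signals 5.31 to 10.2), XAGE3 (13.1 to 18.4) and PAGE2 (8.34 to 11.5). GAGE7 had a ratio of 0.87 ± 0.35 in A2780CBNDXL, higher on 4 of 4 arrays, with no array well above background. CTAG1A and CTAG2 were likewise at mean signals of 4.70 to 14.6.

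SSX2 is represented by a pair of probes that disagreed. Probe A_24_P256243 was well above background in every channel, at 85.6 to 159.5 in A2780CBN against 106.6 to 181 in its control, and at 139 to 225 in A2780CBNDXL against 125 to 178. Its ratios were −0.17 ± 0.10 and 0.37 ± 0.23, each with 1 sign on 4 of 4 arrays. Probe A_23_P252023 stayed at 3.86 to 5.63 in all channels. The first probe shares a run of 27 bases with the SSX9 probe, which was itself not detected (mean signals 6.22 to 7.83). The 30-base stretches below, as the array design lists them, show that run in capitals beside a stretch of the SSX2 probe that was not detected.
SSX2, A_24_P256243, bases 24 to 53: gGGAAAACCAACTACCTCTGAGAAGATTca
SSX9, A_23_P396115, bases 1 to 30: GGAAAACCAACTACCTCTGAGAAGATTaac
SSX2, A_23_P252023, bases 16 to 45: agtgggaaaagatgaaagcctcagagaaaa

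Because SSX genes are close copies, the signal of the first probe cannot be given to SSX2 alone. Of the 11 SSX-named probes, 2 were detected in each channel, this one and SSX2IP. SSX2IP had signals of 191 to 263 in A2780CBN against 228 to 383, and of 263 to 299.5 in A2780CBNDXL against 273 to 436. Its channels overlapped in both lines, and its ratios were −0.31 ± 0.30 and −0.26 ± 0.44. SSX5 was well above background on 1 to 3 arrays of each channel, with ratios of −0.37 ± 0.28 and 0.26 ± 0.61. The probes of the called members had no run of 25 or more bases in common with any other probe, as was true of 50 of the 58 probes.
MAGEC2, A_23_P62099, bases 16 to 45: ctcccttattttgtgatctgtaacagggta
MAGEA8, A_23_P217554, bases 16 to 45: attgggcgatttggaggtttatctttgttt

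No CTAGE probe reached 2-fold in either line. CTAGE5 had 4 probes. Of these, A_23_P128773 had means of 2003 in A2780CBN and 1541 in its control, and of 1725 in A2780CBNDXL and 1745 in its control, with ratios of 0.38 ± 0.16 and −0.03 ± 0.12. Probes A_24_P333326 and A_32_P116840 had ratios of 0.19 ± 0.06 and 0.15 ± 0.20 in A2780CBN, and A_32_P121362 was not detected. CTAGE1 had 1 probe of 3 that was detected on all arrays, with ratios of 0.63 ± 0.49 and 0.21 ± 0.36. The other CTAGE probes, for CTAGE3, CTAGE4, CTAGE6, CTAGE9 and CTAGEP, had ratios of 0.14 to 0.34 in A2780CBN and −0.10 to 0.36 in A2780CBNDXL. The CTAGE5 probe A_32_P116840 shares a run of 40 bases with the CTAGE9 probe. Another CTAGE5 probe, A_23_P128773, shares 33 bases with the CTAGE4 probe and 29 with the CTAGEP probe. These values are therefore not separate measurements of separate genes.

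Around the members on chromosome X, 244 other probes lay within 500 kb of a member. In A2780CBN, 2.46% of them were higher and 2.05% lower, beside 3.97% and 2.98% of all other X probes. In A2780CBNDXL, 8.61% were higher and 1.64% lower, beside 5.82% and 6.74% of all other X probes. The 22 non-member probes within 500 kb of MAGEA8 had ratios from −1.42 to 0.62 in A2780CBNDXL and 0 were called, although 11 were detected. In A2780CBN 3 of the 22 were called lower. For MAGEC2 only 1 neighbouring probe was on the array, with a ratio of 0.08 and no detection.

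**Figure D5:**
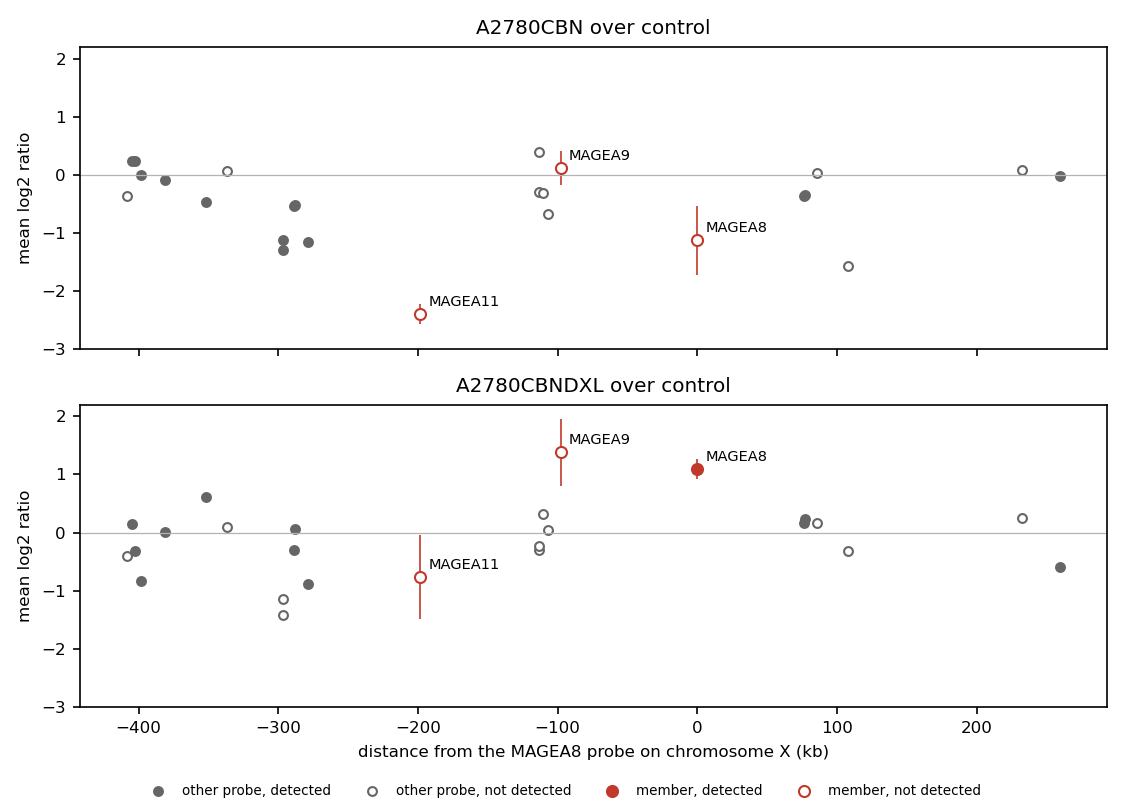
Mean log2 ratio (y axis) of member (red, bars SD of 4 arrays) and other (grey) probes against distance from the MAGEA8 probe (x axis, kb) in both lines; filled points were well above background on all 4 arrays in 1 or both channels. In A2780CBNDXL, MAGEA8 and MAGEA9 lie above every other probe of the region.

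The neighbours named in A2780CBN were CSAG2, CSAG1 and IL1RAPL1. IL1RAPL1, 263.6 kb from MAGEB2, was at least 1.88-fold higher. CSAG2 and CSAG1 are cancer-testis genes of the MAGEA12 region, and CSAG2 was first described as a taxol resistance-associated gene. CSAG2 was at least 3.98-fold higher in A2780CBN on probe A_24_P79529, whose control (mean 16.8) was well above background on 0 of 4 arrays. Its other probe, A_24_P567298, was well above background on 1 resistant array (2.29 ± 0.37) and was not called. CSAG1 was higher by 1.79 ± 0.64. In A2780CBNDXL A_24_P79529 had 1.29 ± 0.56 and CSAG1 1.03 ± 0.50, and neither was called. MAGEA12, 9.3 kb from the CSAG1 probe, had a ratio of −0.49 ± 1.62 with no array well above background. The lowest called there were an unnamed transcript (A_32_P15288, at least 2.05-fold lower), the deacetylase HDAC6 (A_24_P205137, −1.22 ± 0.22) and USP51 (−1.20 ± 0.64). Another HDAC6 probe, A_23_P250455, gave 0.85 ± 0.19 there and was called higher in A2780CBNDXL (1.44 ± 0.20). In A2780CBNDXL the amino acid transporter SLC38A5 (2.71 ± 0.33), the potassium channel KCND1 (2.68 ± 0.43) and ZNF630 (2.58 ± 0.32) were highest, and the chloride transporter CLCN5 (−1.98 ± 0.53), an unnamed transcript (A_32_P78285, −1.47 ± 0.13) and the creatine transporter SLC6A8 (−1.22 ± 0.15) were lowest.

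The ubiquitous MAGE genes carry the same domain but are used in many tissues. Of 15 probes, 6 (40.0%), for the 4 genes MAGEL2, MAGED1, MAGED2 and MAGED4B, were higher in A2780CBNDXL, beside the 4.50% of all probes, and 0 were higher in A2780CBN. MAGEL2, an imprinted gene that helps recycle membrane proteins, had means of 639 and 145 (2.14 ± 0.18) in A2780CBNDXL and of 151 and 176 (−0.21 ± 0.14) in A2780CBN. MAGED1, an adaptor of neurotrophin receptor signalling, was higher by 1.65 ± 0.35 and 1.24 ± 0.10 on its pair of probes in A2780CBNDXL, and had 0.60 ± 0.44 and 0.38 ± 0.23 in A2780CBN. MAGED2 gave 1.43 ± 0.56 and 1.33 ± 0.39, and 0.77 ± 0.04 and 0.71 ± 0.03 in A2780CBN. MAGED4B gave 1.01 ± 0.40. The remaining probes of this list were not called in either line. The pairs of MAGED1 and MAGED2 probes and a MAGED4B probe also lie within 500 kb of XAGE or PAGE members. The share of this list and that of the neighbours called higher are therefore not separate results.

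Among 73 probes of other cancer-testis genes, 5.48% were higher and 1.37% lower in A2780CBN, and 5.48% higher and 4.11% lower in A2780CBNDXL. All probes had 4.62% and 2.84%, and 4.50% and 5.16%, so the list was near the array and the genes below are single values. Besides the CSAG genes, ACRBP, a protein of the sperm acrosome, was higher in A2780CBN by 1.41 ± 0.42. Highest in A2780CBNDXL were TDRD1, which works in the piRNA pathway of germ cells (1.61 ± 0.27), CT45A1 (1.10 ± 0.63) and PLAC1, a placental antigen (1.08 ± 0.28). TPTE, a testis phosphatase homologue, was near the 2-fold limit in both lines (1.05 ± 0.29 and 1.01 ± 0.19). OTOA, an inner ear matrix protein also listed as a cancer-testis antigen, fell by 3.95 ± 0.07 in A2780CBN and fell by 4.79 ± 0.47 in A2780CBNDXL, on the log2 scale, from means of 6794 to 443 and of 6352 to 240. TEX15 (−1.93 ± 0.31) and CXorf61 (−1.28 ± 0.54) were lower in A2780CBNDXL. PRAME, named for its level, had means of 3811 to 6398 on probe A_24_P216361 with ratios of 0.74 ± 0.11 and 0.46 ± 0.44, and was not called. Its other probe gave 0.57 ± 0.39 and −0.06 ± 0.13.

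Of 74 probes for DNA methylation and chromatin regulators, 1.35% were higher and 5.41% lower in A2780CBN, and 1.35% higher and 2.70% lower in A2780CBNDXL. All probes had 4.62% and 2.84% in A2780CBN, and 4.50% and 5.16% in A2780CBNDXL. The genes below are single values. DNMT3B, a de novo DNA methyltransferase, was lower in both lines: A2780CBN had a mean of 2261 and its control 4605 (−1.02 ± 0.54), and A2780CBNDXL had 2614 and its control 5906 (−1.13 ± 0.19). DNMT1, the maintenance enzyme, had ratios of −0.21 ± 0.17 and 0.00 ± 0.34. MBD2, which binds methylated DNA, was lower on probe A_24_P119201 (−2.80 ± 0.33 and −1.28 ± 0.24), while its other probes gave −0.46 ± 0.05 and −0.44 ± 0.55 in A2780CBN and −0.27 ± 0.10 and −0.44 ± 0.42 in A2780CBNDXL. TRDMT1, an RNA methyltransferase, was lower on A_32_P21579 (−1.55 ± 0.65) and A_24_P252705 (−1.05 ± 0.22) in A2780CBN, and its other probe gave −0.49 ± 0.46. Called higher were L3MBTL2 in A2780CBN (1.00 ± 0.28) and MBD3 in A2780CBNDXL (1.10 ± 0.66). Whether any of these bears on the members was not tested.

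Of 15 probes for germ cell markers, 3 were detected in each channel of both lines (ACR and TSPYL1 probes) and 0 were called. Of the markers in this list, DDX4, DAZL, AKAP4, PGK2 and TNP1 had mean signals of 4.64 to 7.72, well above background on no array. Counting any single array, 5 of the 15 probes were well above background in A2780CBN and 7 in its control. For A2780CBNDXL and its control these counts were 6 and 4. The summed signal of this list was 1706 to 2762 in A2780CBNDXL and 1493 to 2458 in its control, and 2601 to 3216 in A2780CBN and 1755 to 2270 in its control. The median signal of its probes was 9.92 in A2780CBNDXL and 7.97 in its control, and 11.6 in A2780CBN and 9.39 in its control. A few bright probes therefore made up most of each sum, and TSPYL1 is not limited to germ cells. These sums do not measure germ cell RNA. SYCP3, a protein of the meiotic chromosome axis, had 31.8 in A2780CBNDXL and 5.06 in its control (2.60 ± 0.41), well above background on 2 of 4 resistant arrays, and was not called. Of 17 probes for ovarian and epithelial markers, 6 (35.3%) were higher in A2780CBN and 1 (5.88%) in A2780CBNDXL, beside 4.62% and 4.50% of all probes. The epithelial adhesion molecule EPCAM was higher in both, by 2.07 ± 0.30 and 1.67 ± 0.24, and the keratin KRT18 in A2780CBN, by 1.27 ± 0.23 and 1.14 ± 0.07 on its probes A_23_P99320 and A_24_P42136. The summed signal of this list was 397894 to 572342 in A2780CBN and 141988 to 320036 in its control, and 349539 to 551317 in A2780CBNDXL and 297450 to 478195 in its control. Between 8 and 10 of its probes were detected in each channel. Its members CDH1, MUC16 and WT1 were well above background on no array. The list also held VIM, a mesenchymal filament, so its counts and summed signal are not those of epithelial genes alone. Of 6 fibroblast probes, all for collagens, 3 were higher and 1 lower in A2780CBN, and 4 higher and 2 lower in A2780CBNDXL. Among all probes, 4.62% were higher and 2.84% lower in A2780CBN, and 4.50% and 5.16% in A2780CBNDXL. The COL3A1 probes had ratios of 1.18 to 1.45 in A2780CBN and 1.09 to 1.46 in A2780CBNDXL, and COL1A1 was higher by 2.04 ± 0.20 in A2780CBNDXL. COL1A2 was lower on A_24_P277934 (−5.67 ± 0.15 and −2.81 ± 0.07), and on A_24_P265274 at least 1.70-fold in A2780CBNDXL. Of 6 blood and vessel probes, 0 were called. The part of these markers in the members' ratios was not tested.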

How the data were processed

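RNA of each resistant line and of its control was hybridized together on 4 arrays. The authors deposited the output of Agilent Feature Extraction (10.7.1.1 for slide 1, 10.7.3.1 for slide 2), in which the processed intensity is background-subtracted, detrended and dye-normalized, with surrogates near background. Dye labels of the reverse arrays repeat those of the forward arrays, but their name and the methods state the reverse. They were turned over, after which log2 ratios of opposite labelling correlated at 0.58 to 0.74 within a line. This shows that the arrays run the same way, while which channel held the resistant line rests on the dye labels of the forward arrays. Outlier spots were left out, spots of a probe were averaged, and log2 ratios were averaged within and then over labelling directions.

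Members and lists were chosen with earlier results of these data known. Of 58 member probes, 46 matched a RefSeq accession. Members named are called genes or, in families without one, the gene with the highest mean signal. MAGEA11, MAGEA9, MAGEC1, SSX2, CTAGE1, SSX5, PRAME, TPTE, SYCP3, CDH1, MUC16, WT1, DNMT1 and MAGED4B were added after seeing values. Of other lists, the 3 highest and 3 lowest called are named. The germ cell markers DDX4, DAZL, AKAP4, PGK2 and TNP1 were not called and are named outside this rule. Bounds used channel values scaled by Aquantile. The number of arrays limits the precision. Alternatives were normexp with loess, centred background-subtracted intensity, arrays left out, single slides, other filters and fold limits, a 3-way ANOVA on line, dye and slide, limma, genes for probes and the other line's control. Rules were also run on simulated data, but the outcome is not given here and no result above rests on it. Normalization and fits ran in limma 3.58.1 (R 4.3.3), tables were made with pandas 2.3.3, numpy 2.4.6 and scipy 1.17.1 under Python 3.11.15, and plots with matplotlib 3.10.9. A2780DXL was not analysed here.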

Additional observations from a re-analysis of the deposited data

Results flagged for a closer look

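For 3 member probes every array of A2780CBN lay on 1 side of zero and every array of A2780CBNDXL on the other, which is 5.17% of the 58 and below the 8.76% of all 41000 probes that met the same rule. The difference between the lines was not tested, since each line is 1 sample. MAGEA8 (A_23_P217554) had a mean log2 ratio of −1.13 in A2780CBN, where no channel was well above background, and of 1.10 in A2780CBNDXL. MAGEA6 (A_23_P136870) had −0.22 and 0.32, with no channel well above background on any array. SSX2 (A_24_P256243) had −0.17 and 0.37, well above background on all arrays, both under 2-fold.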

How the results depend on the processing

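The count of 2 higher members in A2780CBNDXL moved in 4 of 19 alternatives. The other 3 counts were 0, where a lack of movement says little. In A2780CBNDXL the 2 higher probes became 0 with normexp and 0 when both channels had to be well above background, and 1 (MAGEC2) with a fold limit of 3. Leaving out 1 array gave 1 to 2. In A2780CBN the 0 lower probes became 1 (MAGEA11) on slide 1 alone and 2 without the filter on dim probes, and leaving out 1 array gave 0 to 1. The 0 higher became 1 (CTAGE1) with a fold limit of 1.5. Normexp called 504 higher and 215 lower of all probes in A2780CBN, in place of 1896 and 1164, and 636 and 855 in A2780CBNDXL, in place of 1843 and 2115. Its offset of 50 is larger than the mean signal of most member probes. The paper does not name the factors of its 3-way ANOVA, so line, dye and slide were taken here. The channels of an array were treated as independent in it, and the detection filter was kept. This ANOVA and limma, whose p-values measure array error only, called MAGEC2 and MAGEA8 in A2780CBNDXL and no member in A2780CBN. When a positive and significant signal sufficed, 37.9% of members were detected in the control channel of A2780CBN. The share was then 39.7% in the resistant channel of A2780CBNDXL and 31.0% in the other channel of each line. When 1 of 4 arrays sufficed, the shares were 37.9% and 36.2% in the resistant and control channels of A2780CBNDXL. Ratios paired the channels of each array, but no test across cultures was possible because each line is 1 sample. Dim signals limit what can be measured for most members.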
